A study of Mus musculus with 21 samples.

Results

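The proteasome genes of the mouse were followed in epididymal white fat, the visceral depot next to the epididymis. They were taken as every gene of the deposited exon count table whose symbol starts with Psma, Psmb, Psmc, Psmd, Psme, Psmf or Psmg followed by a number, leaving out pseudogenes marked -ps. The rule used names only and found 49 of 38087 genes, and 48 of the 49 passed the filter on low counts; Psmb11 did not. The animals were male C57BL/6j mice, aged 15-16 weeks and fed ad libitum, that were either conventionally raised, with a gut microbiota, or germ-free, without one. Total RNA was sequenced from 12 conventional libraries, 2 at each of the zeitgeber times ZT02, ZT06, ZT10, ZT14, ZT18 and ZT22. The germ-free arm held 9 libraries, 2 each at ZT06, ZT10 and ZT22 and 1 each at ZT02, ZT14 and ZT18. Zeitgeber time counts hours in the light cycle. Whether each library came from its own mouse is not in the labels; the spread behind every p-value is that between libraries, which may be technical.

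The proteasome is the large protease that degrades proteins tagged with ubiquitin. Its 20S core is a barrel of alpha rings, which gate the entrance, and beta rings, which hold the cutting sites on Psmb5, Psmb6 and Psmb7; the 19S cap binds the tagged protein, removes the tag and threads the chain in with its ring of ATPases. Interferon, and a leukocyte identity, bring in Psmb8, Psmb9 and Psmb10, which take the places of Psmb5, Psmb6 and Psmb7 and form the immunoproteasome, whose peptides suit presentation on MHC class I. The transcription factor Nfe2l1 raises the genes of the standard particle together when proteasome activity is short, through antioxidant response elements near their starts.

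RefSeq promoter windows (GRCm38.p6, from 250 bases before to 50 bases after a gene's start) were held for 41 of the 49 genes. Whether the elements searched for act on these genes was not tested. The stretches below are shown because they carry, or lack, the letters of elements known from the control of proteasome genes. They run 5′ to 3′ on the gene's strand and hold only bases outside annotated exons, except for Psmb8, whose window lies inside an exon of a longer annotated transcript and which is shown as the match with 10 bases on each side. Capitals mark the antioxidant response element core TGACNNNGC in Psmb5 (chr14:54618023-54618245, minus strand), Psmb6 (chr11:70525107-70525356, plus strand) and Psmd9 (chr5:123227940-123228189, plus strand). In Psmb8 (chr17:34198088-34198116, plus strand) they mark the gamma-activated site TTCNNNGAA, and Psmb10 (chr8:105938445-105938642, minus strand) has neither in its window. The matches begin at -47, -9, -31 and -97 in Psmb5, Psmb6, Psmd9 and Psmb8, counted from the gene's start.
Psmb5: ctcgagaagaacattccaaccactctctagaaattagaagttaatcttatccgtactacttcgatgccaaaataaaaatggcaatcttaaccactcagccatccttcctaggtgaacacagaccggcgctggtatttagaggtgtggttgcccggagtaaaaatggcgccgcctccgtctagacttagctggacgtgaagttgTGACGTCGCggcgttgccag
Psmb6: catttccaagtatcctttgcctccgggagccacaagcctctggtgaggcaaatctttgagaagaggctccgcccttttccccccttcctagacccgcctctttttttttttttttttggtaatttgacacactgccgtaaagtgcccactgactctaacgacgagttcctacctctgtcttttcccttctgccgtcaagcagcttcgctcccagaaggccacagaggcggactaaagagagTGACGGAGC
Psmd9: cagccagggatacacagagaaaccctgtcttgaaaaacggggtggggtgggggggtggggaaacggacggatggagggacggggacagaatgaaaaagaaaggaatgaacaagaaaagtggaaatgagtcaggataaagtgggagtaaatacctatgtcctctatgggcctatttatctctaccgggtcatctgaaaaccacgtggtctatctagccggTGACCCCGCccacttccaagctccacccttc
Psmb8: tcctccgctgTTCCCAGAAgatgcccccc
Psmb10: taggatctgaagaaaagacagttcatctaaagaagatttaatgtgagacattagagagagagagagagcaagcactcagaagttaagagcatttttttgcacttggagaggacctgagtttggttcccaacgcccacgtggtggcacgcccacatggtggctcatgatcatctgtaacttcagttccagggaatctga

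Searched on both strands, TGACNNNGC occurred in 6 of the 44 windows of these genes: those of Psmb5, Psmb6, Psmc6, Psmd12, Psmd9 and Psme4. For the standard subunits this was 4 of 27 windows, or 14.8%, beside 12.4% of all 32851 windows of this length. TTCNNNGAA was present in 3 of the 44 windows (Psmb8, Psmd2 and Psmg1), beside 8.30% of all windows. The interferon regulatory factor element GAAANNGAA was present in 7 of the 44 (Psmb3, Psmb4, Psmc2, Psmd4, Psmd9, Psme1 and Psmg4) and in none of the 3 windows of immunoproteasome genes, beside 8.56% of all windows. A match is a run of letters, not a shown binding site, and a missing match says only that the letters are not in that window.

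Library totals ranged from 24388294 to 37097857 counts over exons in conventional and from 28900903 to 48348181 in germ-free libraries. Of 18334 genes tested, 2805 (15.3%) were higher and 2123 (11.6%) lower in germ-free fat at an adjusted p under 0.05. The fat label held: all 8 adipocyte markers (such as Adipoq and Plin1) were tested, and their summed level ranged from 13263 to 20935 CPM (a gene's counts per 1000000 of the TMM-scaled library total) in conventional and from 15133 to 24181 CPM in germ-free libraries, with Fabp4 and Slc2a4 higher and Lep lower in germ-free fat. Markers of ciliated duct cells exceeded 5 times the median library in 6 libraries, 4 conventional and 2 germ-free, so some libraries held RNA of neighbouring tissue. Male accessory gland markers reached 1571 CPM in 1 conventional library and 3.92 CPM at most in the germ-free arm. Epididymis markers ran the other way: they reached 391 CPM in germ-free ZT22 replicate 2 and 119 CPM in germ-free ZT22 replicate 1, and 35.2 CPM at most in conventional libraries.

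Genes of the proteasome were higher in germ-free fat as a broad group and by small amounts. Of the 48 genes tested, 33 (68.8%) rose and 0 fell at an adjusted p under 0.05 (edgeR quasi-likelihood test over all 18334 genes, time held as a factor, Benjamini-Hochberg adjustment), where 15.3% of all genes rose and 11.6% fell. At an unadjusted p under 0.05, where the share of all genes was not counted, 40 were higher and 0 lower. DESeq2's Wald test also called 33 higher and 0 lower. The rise was between 0.16 and 0.34 on the log2 scale for the 33, which is 1.11 to 1.26-fold. The median log2 fold change was 0.20 for the 48 and 0.03 for all genes tested, and 44 of the 48 were above 0. The arms overlapped in every one of the 48 genes. Of all genes tested, 0.665% had arms that did not overlap, so 0 of 48 is near the share of all genes. In bulk tissue, a change in the share of a cell type and a change of RNA per cell cannot be told apart. Endothelial markers moved the same way as these genes: 3 of 5 rose, Kdr by 0.65 ± 0.09, Cdh5 by 0.34 ± 0.11 and Tie1 by 0.34 ± 0.09. Their summed level ranged from 497 to 787 CPM (median 550) in conventional and from 579 to 835 CPM (median 730) in germ-free libraries. Of 4 mesothelial markers Wt1 was lower (-0.46 ± 0.07, adjusted p = 0.000534); their sum ranged from 206 to 419 CPM (median 301) in conventional and from 182 to 487 CPM (median 232) in germ-free libraries. No marker of either list was at 0 in every library, and their part in the rise was not tested.

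The calls depended on single libraries, while the direction of the median and of the called genes did not. Among the uncalled genes, Psmb9, Psmc3ip and Psme3 changed sign in 1, 2 and 5 fits with 1 library left out. Leaving out germ-free ZT18 replicate 2 left 9 of the 48 genes called, beside 8.59% of all genes tested. Leaving out conventional ZT18 replicate 1, germ-free ZT06 replicate 1, germ-free ZT10 replicate 1 or germ-free ZT14 replicate 2 left 21, 21, 19 and 21. Beside these stood 12.2%, 11.9%, 9.85% and 9.88% of all genes tested. The median of the 48 stayed between 0.16 and 0.22 over the 21 fits that left out 1 library. None of the 48 was called lower in any of those fits. The 9 genes called in each of those fits were Psma6, Psma7, Psmb6, Psmb7, Psmd4, Psmd12, Psmd5, Psmd9 and Psme1.

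**Figure D1:**
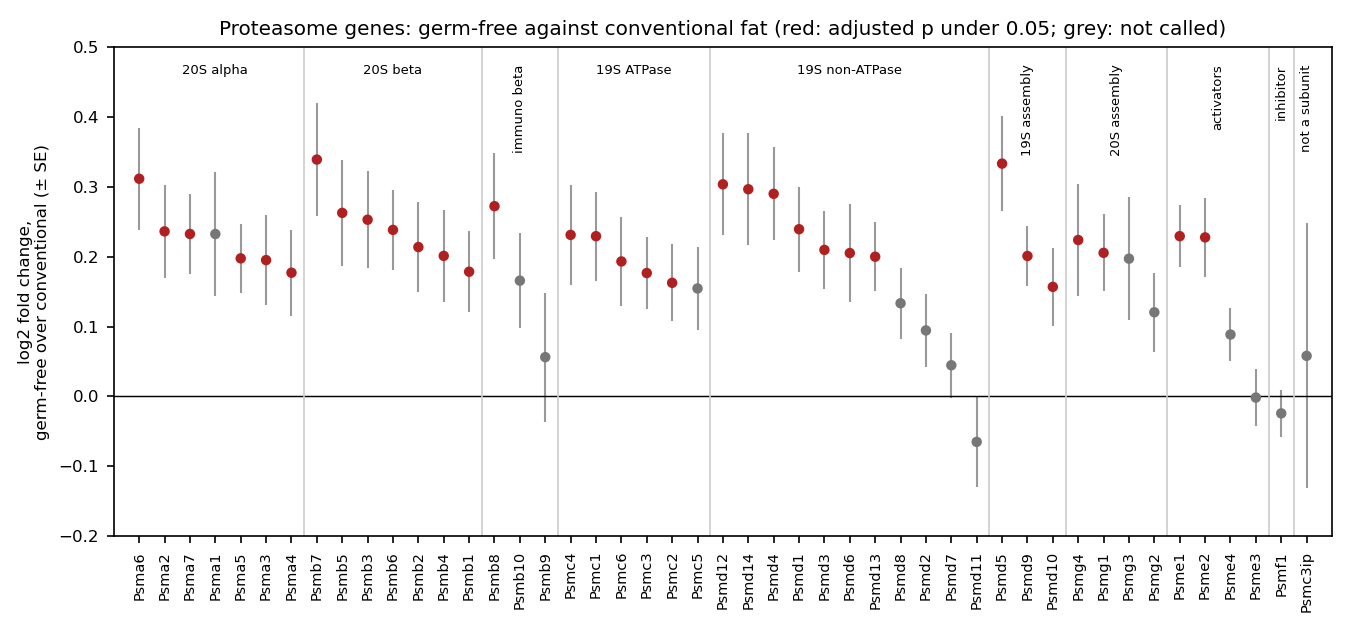
Log2 fold change of each proteasome gene, germ-free over conventional, with its standard error as a vertical line (edgeR, 12 and 9 libraries), ordered within functional groups; red points passed an adjusted p of 0.05. Psma8 and Psmb11, near or at 0 reads in fat, are not drawn; nearly all points lie between 0 and 0.34, and Psme3, Psmf1 and Psmd11 lie at or just below 0.

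In the alpha ring, 6 of 7 subunits rose, beside 15.3% of all genes tested, with a median log2 fold change of 0.23. Psma6 had a lowest, median and highest level of 68.3, 79.5 and 95.4 CPM in conventional and 87.4, 104 and 118 CPM in germ-free libraries. It rose by 0.31 ± 0.07 on the log2 scale (SE, adjusted p = 0.0054), and all 9 germ-free libraries lay above the conventional median, 5 of them above every conventional library. Psma7 went from 64.1, 75.0 and 91.4 CPM to 82.0, 89.8 and 99.3 CPM, a rise of 0.23 ± 0.06 (adjusted p = 0.00698). Psma5 went from 33.7, 42.3 and 46.3 CPM to 42.1, 47.5 and 55.2 CPM (0.20 ± 0.05, adjusted p = 0.00788). The call of Psma5 ended without germ-free ZT18 replicate 2 (adjusted p = 0.0546). Psma1 was the subunit of this ring that missed the threshold: its estimate of 0.23 ± 0.09 equalled that of Psma7, but its libraries were more spread (77.3, 94.8 and 124 CPM against 91.4, 116 and 132 CPM, adjusted p = 0.0612). The remaining members of the ring, Psma2, Psma3 and Psma4, rose by 0.24, 0.20 and 0.18, calls that ended in 2, 12 and 14 of the 21 fits with 1 library left out.

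All 7 standard beta subunits rose, beside 15.3% of all genes tested, and the 3 with cutting activity were among them. Psmb7, which carries the trypsin-like site (chr2:38588036-38644087), had 83.3, 92.3 and 116 CPM as lowest, median and highest conventional values and 100.2, 121 and 150 CPM in germ-free libraries. Its rise of 0.34 ± 0.08 (adjusted p = 0.00577) was the highest log2 fold change of the 48 genes. Psmb6, the caspase-like subunit (chr11:70525367-70527858), went from 71.7, 80.6 and 96.2 CPM to 84.5, 97.9 and 107 CPM, a rise of 0.24 ± 0.06 (adjusted p = 0.00634). Psmb5, the chymotrypsin-like subunit (chr14:54614119-54618022), went from 30.3, 37.5 and 46.9 CPM to 35.2, 45.2 and 53.5 CPM, a rise of 0.26 ± 0.08 (adjusted p = 0.0178). In all 3 the arms overlapped, with 5, 5 and 4 of the 9 germ-free libraries above every conventional one for Psmb7, Psmb6 and Psmb5. Psmb5 lost its call without germ-free ZT18 replicate 2 (adjusted p = 0.0854), while Psmb6 and Psmb7 kept theirs without any 1 library. The structural subunit Psmb3 rose by 0.25 ± 0.07 (adjusted p = 0.0130), and its call also ended without germ-free ZT18 replicate 2 (adjusted p = 0.0719). Psmb4, the member of this ring with the largest p, rose by 0.20 ± 0.07 (adjusted p = 0.0316), a call that ended in 9 of the 21 fits with 1 library left out. Psmb2 and Psmb1 rose by 0.21 and 0.18, and their calls ended in 7 and 10 of those fits.

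In the 19S cap, 12 of 17 subunits rose, beside 15.3% of all genes tested, with a median log2 fold change of 0.20. Among the 6 ATPases, which unfold the substrate, 5 rose. Psmc1 went from a lowest, median and highest level of 84.9, 97.3 and 118 CPM to 100.1, 116 and 141 CPM, a rise of 0.23 ± 0.06 (adjusted p = 0.0140). Psmc4 rose by 0.23 ± 0.07 (adjusted p = 0.0237) and Psmc3 by 0.18 ± 0.05 (adjusted p = 0.0186). The calls of Psmc1, Psmc3 and Psmc4 ended in 2, 5 and 7 of the 21 fits with 1 library left out. Psmc6 and Psmc2 rose by 0.19 and 0.16, calls that ended in 11 and 14 of them, and Psmc5 was not called at 0.15 ± 0.06 (adjusted p = 0.0610).

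Of the 11 non-ATPase subunits, 7 rose, beside 15.3% of all genes tested. Psmd4, a receptor for ubiquitin chains, had 83.6, 99.1 and 119 CPM in conventional and 97.4, 123 and 153 CPM in germ-free libraries, a rise of 0.29 ± 0.07 (adjusted p = 0.00456). Psmd12, a lid scaffold, went from 43.6, 51.0 and 68.3 CPM to 58.1, 62.7 and 79.1 CPM, a rise of 0.30 ± 0.07 (adjusted p = 0.00603). Both overlapped between the arms and both were called without any 1 library. Psmd13, another scaffold of the lid, rose by 0.20 ± 0.05 (adjusted p = 0.00699), a call lost without germ-free ZT18 replicate 2 (adjusted p = 0.0544). Psmd14, the lid protease that cuts off ubiquitin, rose by 0.30, Psmd1 by 0.24, Psmd3 by 0.21 and Psmd6 by 0.21. The call of Psmd6 ended in 12 of the 21 fits with 1 library left out and those of Psmd14, Psmd1 and Psmd3 in 1 each. The 4 that were not called were Psmd8 (0.13 ± 0.05), Psmd2 (0.09 ± 0.05), Psmd7 (0.04 ± 0.05, adjusted p = 0.529) and Psmd11 (-0.06 ± 0.06, adjusted p = 0.501). Psmd11 was the 1 standard subunit with an estimate below 0. Psmd2, Psmd8, Psmd11 and Psmd14 are named here after their values were seen.

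Of the 3 immunoproteasome subunits, Psmb8 rose and the other 2 were not called, where 15.3% of all genes tested rose. A count of 1 of 3 rests on 1 gene. Psmb8 (chr17:34197721-34201454, the counterpart of Psmb5) had a lowest, median and highest level of 24.8, 30.8 and 39.7 CPM in conventional and 32.5, 37.9 and 42.9 CPM in germ-free libraries. Its rise of 0.27 ± 0.08 (adjusted p = 0.0146) was close to that of Psmb5, and it was lost without germ-free ZT18 replicate 2 (adjusted p = 0.0706). Psmb10 (chr8:105935735-105938444, the counterpart of Psmb7) had 23.8, 27.4 and 30.4 CPM in conventional and 23.9, 30.5 and 34.1 CPM in germ-free libraries, an estimate of 0.17 ± 0.07 that missed the threshold (adjusted p = 0.0806). It passed without conventional ZT10 replicate 1 (adjusted p = 0.0433) or without germ-free ZT22 replicate 1 (adjusted p = 0.0228). Psmb9 (chr17:34181987-34187764, the counterpart of Psmb6) had 13.3, 16.3 and 23.8 CPM against 14.4, 17.1 and 22.1 CPM, an estimate of 0.06 ± 0.09 (adjusted p = 0.712) that was -0.02 without germ-free ZT18 replicate 2. Conventional ZT06 replicate 2 held the highest Psmb9 value of all 21 libraries and germ-free ZT02 replicate 2 the next one. The difference between the responses of Psmb8 and Psmb9 was not tested.

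Per kb of exon, all 3 immunoproteasome genes lay below the median of the standard subunits, with Psmb8 and Psmb10 inside their range. Their mean levels over all libraries were 4.69 CPM per kb for Psmb9, 11.1 for Psmb8 and 22.1 for Psmb10, whereas the 31 standard subunits ran from 9.31 (Psmd11) over a median of 34.7 to 97.6 (Psmb1). Psmb8 stood at 0.231 ± 0.0301 of the level of Psmb5 in conventional libraries (SD, n = 12) and at 0.236 ± 0.0355 in germ-free libraries (SD, n = 9). The ratio of Psmb9 to Psmb6 was 0.105 ± 0.0146 in conventional and 0.0932 ± 0.0126 in germ-free libraries, a log2 difference of -0.17. Psmb10 relative to Psmb7 was 0.369 ± 0.0474 in conventional and 0.326 ± 0.0502 in germ-free libraries, again a log2 difference of -0.17. The size of each ratio depends on the deposited exon lengths. These were 3048, 3659 and 1270 bases for Psmb8, Psmb9 and Psmb10, and 871, 1872 and 1678 bases for Psmb5, Psmb6 and Psmb7. In plain CPM the conventional means were 31.0, 16.8 and 26.7 against 38.6, 81.9 and 96.5. All 3 ratios overlapped between the arms, with 0, 2 and 4 of the 9 germ-free libraries below the lowest conventional one, and each difference of means was smaller than the SD of either arm. At ZT22 both germ-free libraries were below both conventional ones for all 3 ratios, as for Psmb10 to Psmb7 with 0.293 and 0.280 against 0.327 and 0.391. At ZT14 the 1 germ-free library was below both conventional ones for Psmb9 to Psmb6 and Psmb10 to Psmb7 and above both for Psmb8 to Psmb5. The ratios are given as a description, without a test. Psmb8 and Psmb9 lie in the MHC region beside Tap2 and Tap1, and exons of Psmb9 overlap those of Tap1 on the opposite strand, so without the strand setting of the counting their reads may be shared.

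**Figure D2:**
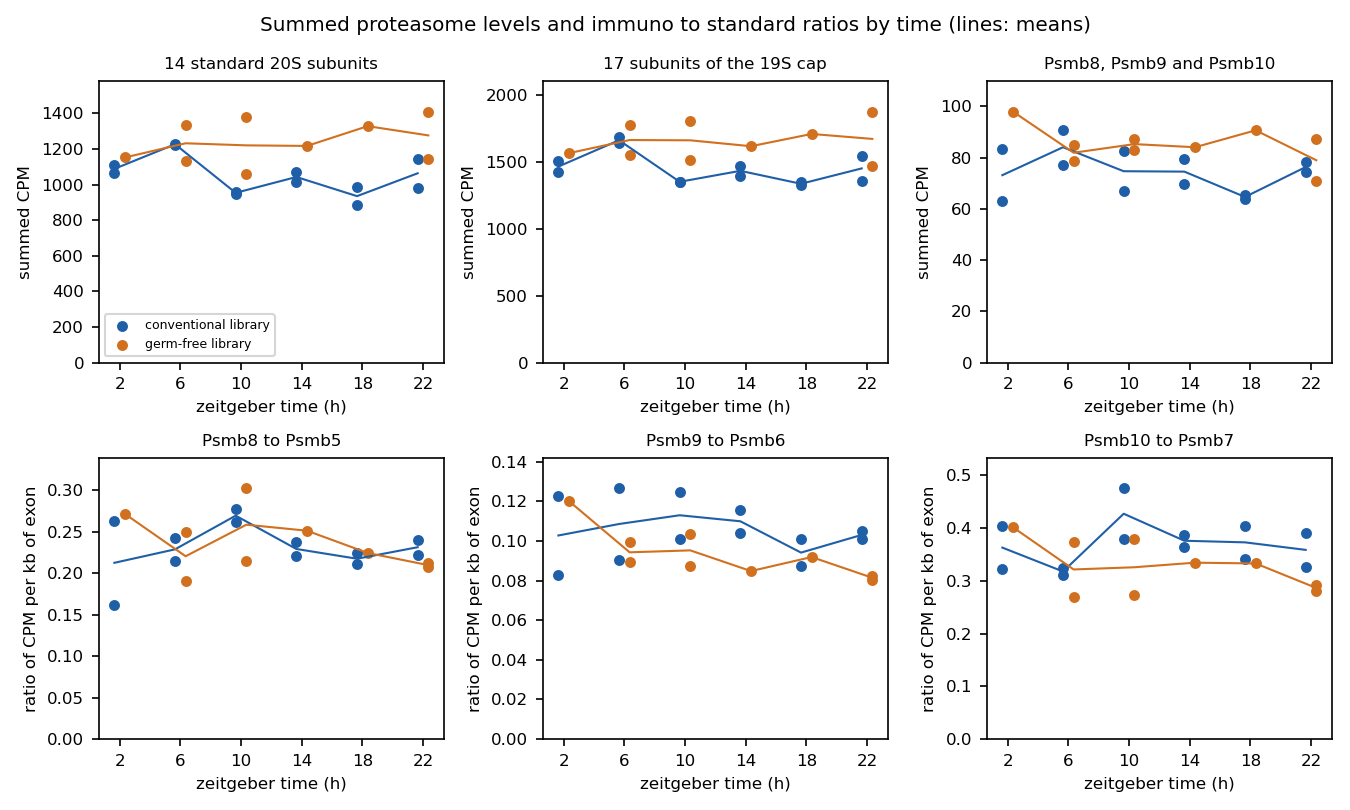
Upper panels: summed CPM of the 14 standard 20S subunits, the 17 subunits of the 19S cap and the 3 immunoproteasome subunits in each library against zeitgeber time; lower panels: the 3 immuno to standard ratios of CPM per kb of exon. Points are libraries (blue conventional, orange germ-free, shifted sideways for view) and lines join means per time; the upper 2 sums separate most at ZT10 and ZT18 and are close at ZT06, and each ratio overlaps between the arms over all times, while at ZT22 both germ-free libraries lie below both conventional ones in all 3.

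Immunoproteasome genes are known to be abundant in leukocytes, so markers of those cells are given beside these values. The summed level of 5 leukocyte markers ranged from 156 to 252 CPM with a median of 205 CPM in conventional libraries and from 144 to 249 CPM with a median of 179 CPM in germ-free libraries. Of those 5, Laptm5 was lower (-0.47 ± 0.10, adjusted p = 0.00224) and Ptprc, which encodes CD45, was not called (-0.11 ± 0.09). Macrophage markers had medians of 1104 CPM (range 867 to 1317) and 891 CPM (range 816 to 1454), and 2 of 8, Itgam and Itgax, were lower. T and NK cell markers had medians of 8.06 CPM (range 7.07 to 17.2) and 9.87 CPM (range 7.22 to 21.2), with 1 of 9 higher, the NK gene Klrb1c. B cell markers had medians of 8.80 CPM (range 1.92 to 23.8) and 7.92 CPM (range 3.63 to 15.7), and none of 4 was called. Dendritic cell and MHC class II markers had medians of 651 CPM (range 491 to 915) and 639 CPM (range 540 to 1146), and none of 6 was called. The leukocyte, macrophage, B cell and dendritic sums had the lower median in germ-free fat, and the T and NK cell sum had the higher one. The sum of the 3 immunoproteasome subunits had the higher median in germ-free fat, 85.1 CPM (range 70.8 to 98.0) against 75.8 CPM (range 62.9 to 90.9). All of these sums overlapped between the arms. The calls in these lists stand beside 15.3% of all genes higher and 11.6% lower, and in each list they rest on 1 or 2 genes at most. For the T and NK cell list, 1 of 9 higher is no more than the share of all genes. None of the markers in these lists was at 0 in every library. The part of cell makeup in Psmb8, Psmb9 and Psmb10 was not tested.

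Among the regulators, both subunits of PA28 alpha-beta rose. Psme1, whose ring opens the core without ATP and which interferon induces, went from 60.4, 67.3 and 72.8 CPM to 69.4, 78.6 and 85.7 CPM, and 8 of 9 germ-free libraries lay above every conventional one. Its rise of 0.23 ± 0.04 (adjusted p = 0.00158) had the smallest p of the 48 genes. Psme2, its partner, went from 58.0, 62.4 and 72.5 CPM to 66.0, 76.0 and 84.9 CPM, a rise of 0.23 ± 0.06 (adjusted p = 0.00774), which stood at an adjusted p of 0.05001 without germ-free ZT18 replicate 2. A near copy of Psme2, Psme2b-ps, is also in the table and reads may have been split between them. Psme3, the nuclear PA28 gamma that interferon does not induce, had 49.7, 54.7 and 63.3 CPM against 48.4, 55.6 and 61.4 CPM, with an estimate of -0.00 ± 0.04 (adjusted p = 0.985). Psme4, which encodes PA200, was not called at 0.09 ± 0.04 (adjusted p = 0.0950). Psmf1, the inhibitor PI31, had 26.7, 28.9 and 32.2 CPM against 26.4, 28.3 and 30.1 CPM and was not called (-0.02 ± 0.03).

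Chaperones that build the particle but are not part of it were higher in part. All 3 chaperones of the cap's base rose, where 15.3% of all genes tested rose. Psmd5 went from 37.9, 42.5 and 49.9 CPM to 46.7, 51.9 and 67.0 CPM, a rise of 0.33 ± 0.07 (adjusted p = 0.00226). Psmd9 went from 17.02, 18.004 and 19.92 CPM to 19.02, 20.997 and 22.69 CPM (0.20 ± 0.04, adjusted p = 0.00288), and both kept their calls without any 1 library. Psmd10, also known as gankyrin, rose by 0.16 ± 0.06 (adjusted p = 0.0463), a call that ended in 15 of 21 fits with 1 library left out. Of the 4 chaperones of the 20S core, 2 rose: Psmg1 by 0.21 ± 0.06 (adjusted p = 0.0117) and Psmg4 by 0.22 ± 0.08 (adjusted p = 0.0458). The call of Psmg1 ended without germ-free ZT14 replicate 2 or without germ-free ZT18 replicate 2, and that of Psmg4 ended in 18 of 21 fits. Psmg3 (0.20 ± 0.09, adjusted p = 0.110) and Psmg2 (0.12 ± 0.06, adjusted p = 0.125) were not called.

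The 3 other names that the rule found lie outside the somatic particle. Psma8, a testis alpha subunit, ranged from 0.178 to 0.685 CPM in conventional and from 0.114 to 0.400 CPM in germ-free libraries and was not called. Psmb11, the catalytic subunit of the thymus, had 3 reads in 2 conventional libraries and no read in the germ-free arm, where a count of 0 allows up to 3 reads, or 0.0092 CPM over the arm. Psmc3ip shares only its name, being a meiotic recombination factor, and was not called at 0.06 ± 0.19.

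Libraries carried the pattern as whole libraries: subunits that were low in a library tended to be low together, as the plot of every subunit by library shows. Conventional ZT18 replicate 1 held the lowest value of the 21 libraries for 18 of the 31 standard subunits and conventional ZT10 replicate 1 for 5. Germ-free ZT22 replicate 2, the library highest in epididymis markers, held the highest value for 18 and germ-free ZT10 replicate 1 for 9. The library next in those markers, germ-free ZT22 replicate 1, held the highest value for 0 and the lowest for 1. Conventional ZT18 replicate 1 also had the lowest total of the 21 libraries, 24388294 counts, and germ-free ZT22 replicate 2 the highest, 48348181. Conventional ZT10 replicate 2, the conventional library with the highest total (37097857 counts), held the lowest value for 3 subunits. The part of depth in the pattern was not tested. Without germ-free ZT22 replicate 2, 22 of the 48 genes were called higher, beside 11.5% of all genes tested. Of the 31 standard subunits 15 were called, and the median log2 fold change was 0.17 for the 48. The overlap came from both ends: conventional ZT06 replicate 2 lay above the median of all libraries for all 31 subunits and conventional ZT06 replicate 1 for 29, while germ-free ZT10 replicate 2 did so for 9 and germ-free ZT22 replicate 1 for 14.

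**Figure D3:**
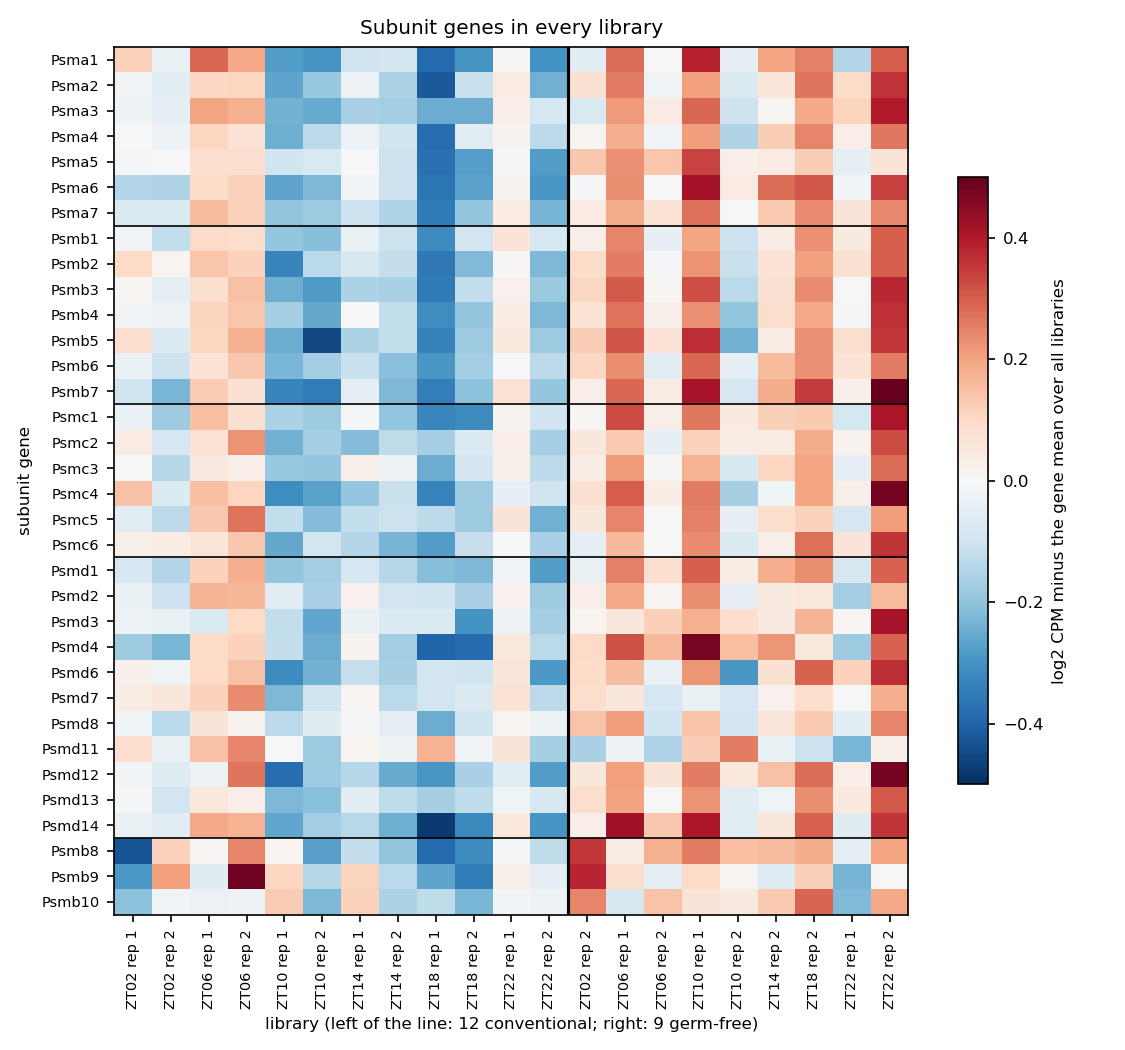
Log2 CPM of the 31 standard and 3 immunoproteasome subunits in each library minus the gene's mean over all 21 libraries, with conventional libraries left and germ-free libraries right of the black line. Columns are coloured nearly uniformly for the standard subunits, bluest in conventional ZT18 replicate 1 and reddest in germ-free ZT22 replicate 2 and ZT10 replicate 1, and the 3 immunoproteasome subunits at the bottom differ from those columns in several libraries, such as those of ZT02.

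Read by time of day, the arms were closest at ZT06 and farthest apart at ZT18. At ZT06 the germ-free mean exceeded the conventional one for 19 of 31 standard subunits, with a median log2 ratio of 0.02. At ZT10 it did so for 31 of 31 (median 0.31), at ZT14 for 30 (0.19), at ZT18 for 30 (0.45), at ZT22 for 30 (0.24) and at ZT02 for 27 (0.10). ZT02, ZT14 and ZT18 rest on 1 germ-free library each, and differences between times were tested only as 24 h rhythms. The summed 20S subunits averaged 1051 ± 109 CPM in conventional (SD, n = 12) and 1239 ± 126 CPM in germ-free libraries (SD, n = 9), and those of the 19S cap 1448 ± 121 and 1652 ± 143 CPM. Both sums overlapped between the arms.

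No proteasome gene passed the test for a 24 h rhythm in conventional fat (0 of 48, edgeR, beside 0.813% of all genes tested), with 9 at an unadjusted p under 0.05. In germ-free fat 1 of 48 passed, Psmg4, beside 4.64% of all genes, with 3 at an unadjusted p under 0.05. The share of all genes at that unadjusted cut was not counted, so the 9 and the 3 have no background beside them. Psmg4 had a fitted amplitude of 0.31 on the log2 scale around a peak at ZT23.6 (adjusted p = 0.0235), from 3.79 CPM in germ-free ZT10 replicate 2 to 7.19 CPM in germ-free ZT22 replicate 2. Its call ended without any of germ-free ZT10 replicate 2, ZT14 replicate 2, ZT18 replicate 2 and ZT22 replicate 2. The others with the smallest p in germ-free fat were Psmg2 (unadjusted p = 0.0104), Psmd5 (0.0403), Psmd9 (0.0821), Psmd11 (0.105) and Psmg3 (0.112), and in conventional fat Psma5 (0.0113), Psmc6 (0.0213), Psmb2 (0.0226), Psmd14 (0.0235), Psma1 (0.0267) and Psma7 (0.0282). The fitted, uncalled curves of the 31 standard subunits in conventional fat all peaked between ZT2.42 and ZT6.05, with a median amplitude of 0.12; in germ-free fat the peaks lay between ZT7.85 and ZT23.7 and the median amplitude was 0.06. Subunits of 1 particle measured in the same libraries share those libraries' deviations, so the common peak is no independent count. A difference of rhythm between the arms was called for 0 of 48 genes and for 0 of all 18334 by edgeR. At an unadjusted p under 0.05 it was seen for 3 of the 48, Psmg4 (0.00906), Psmd9 (0.0159) and Psmc6 (0.0384), and for 1415 of all genes; no other tool was run on it.

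Genes that work with the proteasome were counted from 5 lists. Of 16 partners that bind it or deliver substrates, 9 rose and 1 fell, beside 15.3% and 11.6% of all genes, with a median log2 fold change of 0.13. Ubqln2, a shuttle for ubiquitinated proteins, fell by 0.86 ± 0.13 (adjusted p = 0.00036) from 25.0, 29.4 and 40.1 CPM to 9.56, 16.1 and 38.3 CPM, with overlapping arms. Zfand5, a proteasome activator, rose by 0.19 ± 0.05 (adjusted p = 0.00994).

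Of 8 regulators of the Nfe2l1 and Nfe2l2 pathway, 1 rose and 0 fell, a share near the 15.3% of all genes that rose. Nfe2l1 itself, whose protein is processed by Ddi2 before it acts, had 419, 491 and 580 CPM against 427, 448 and 520 CPM and was not called (-0.06 ± 0.05, adjusted p = 0.334). Ddi2 was not called either (-0.14 ± 0.06, adjusted p = 0.0842). Keap1, the adaptor that targets Nfe2l2 for degradation, rose by 0.17 ± 0.04 (adjusted p = 0.00651), a call that ended without germ-free ZT18 replicate 2 (adjusted p = 0.0525). Of 8 Nfe2l2 targets 2 rose and 0 fell, beside the same 15.3%: Gsr, glutathione reductase, by 0.18 ± 0.03 (adjusted p = 0.000489) and Gclc, of glutathione synthesis, by 0.23 ± 0.06 (adjusted p = 0.00823).

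The class I presentation list, which uses the peptides of the proteasome, showed 3 genes higher and 1 lower of 12, close to the 15.3% and 11.6% of all genes. Tapbp, tapasin, fell by 0.30 ± 0.06 (adjusted p = 0.00275), from 200, 224 and 255 CPM to 164, 178 and 220 CPM. Tapbpl rose by 0.24 ± 0.06 (adjusted p = 0.0107) and Tap2, a subunit of the peptide transporter, by 0.24 ± 0.07 (adjusted p = 0.0187). The calls of Tap2 and Tapbpl ended without germ-free ZT18 replicate 2 (adjusted p = 0.0715 and 0.0572), and that of Tap2 without germ-free ZT14 replicate 2 as well. Erap1, which trims the peptides, was the other gene that rose. B2m, H2-K1, H2-D1 and the class I transactivator Nlrc5 were not called. Of 19 interferon pathway genes tested out of 20, 1 rose and 3 fell, beside 15.3% and 11.6% of all genes, which is no more than the background share for the rises and near it for the falls. Irf2 fell by 0.63 ± 0.13 (adjusted p = 0.00233) and Jak1 by 0.16 ± 0.04 (adjusted p = 0.0141), and Stat2 was the other. Irf7 rose by 0.29 ± 0.09 (adjusted p = 0.0268), a call that ended without germ-free ZT10 replicate 1, ZT14 replicate 2, ZT18 replicate 2 or ZT22 replicate 2. The interferon gene Ifng did not pass the filter, and its reads reached 0.373 CPM at most.

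A length trend moved with the comparison. Over all genes tested, which are not independent replicates, the log2 fold change and exon length had a Spearman rho of -0.228. The proteasome genes were short, with a median exon length of 2136 bases against 3324 for all genes tested, and 35 of the 48 were shorter than that median. The trend of a library, the rho of a gene's deviation from its mean with exon length, ranged from -0.110 to 0.182 (median 0.121) in conventional libraries and from -0.307 to 0.104 (median -0.0745) in germ-free libraries. It was most negative in germ-free ZT06 replicate 1 (-0.307), ZT22 replicate 2 (-0.223), ZT10 replicate 1 (-0.205) and ZT18 replicate 2 (-0.204). Those libraries also held the highest sums of the 31 standard subunits, at 3104, 3283, 3184 and 3034 CPM. In the conventional arm ZT06 replicate 1 had the most negative trend (-0.110), and ZT06 replicate 2 (0.0706) the highest sum, 2906 CPM. With each library's own trend taken out, 23 of the 48 genes were called higher and 0 lower, beside 15.2% and 10.4% of all genes tested. Of those 23, 22 were among the 33, and the median log2 fold change of the 48 was 0.16. Psmb5, Psmb6, Psmb7 and Psmb8 were still called, at 0.17, 0.18, 0.28 and 0.25. What makes the trend was not tested.

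Leaving out the 6 libraries with high ciliated duct markers, 33 genes were again called higher, beside 13% of all genes tested. Of these, 30 were shared with the 33 above, and the median of the 48 was 0.26. The 3 times with 2 libraries in both arms alone gave 1 call (Psmd5) with 15 genes at an unadjusted p under 0.05. The libraries numbered 2 alone gave 2 calls (Psmd4 and Psmb10) with 22. Of all genes tested, 2.96% and 2.45% were called higher in these subsets, so 1 and 2 of 48 are near the share of all genes. The medians of the 48 were 0.17 and 0.19, as the plot of calls and medians by setting shows. For these subsets too, the share of all genes at the unadjusted cut was not counted.

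**Figure D4:**
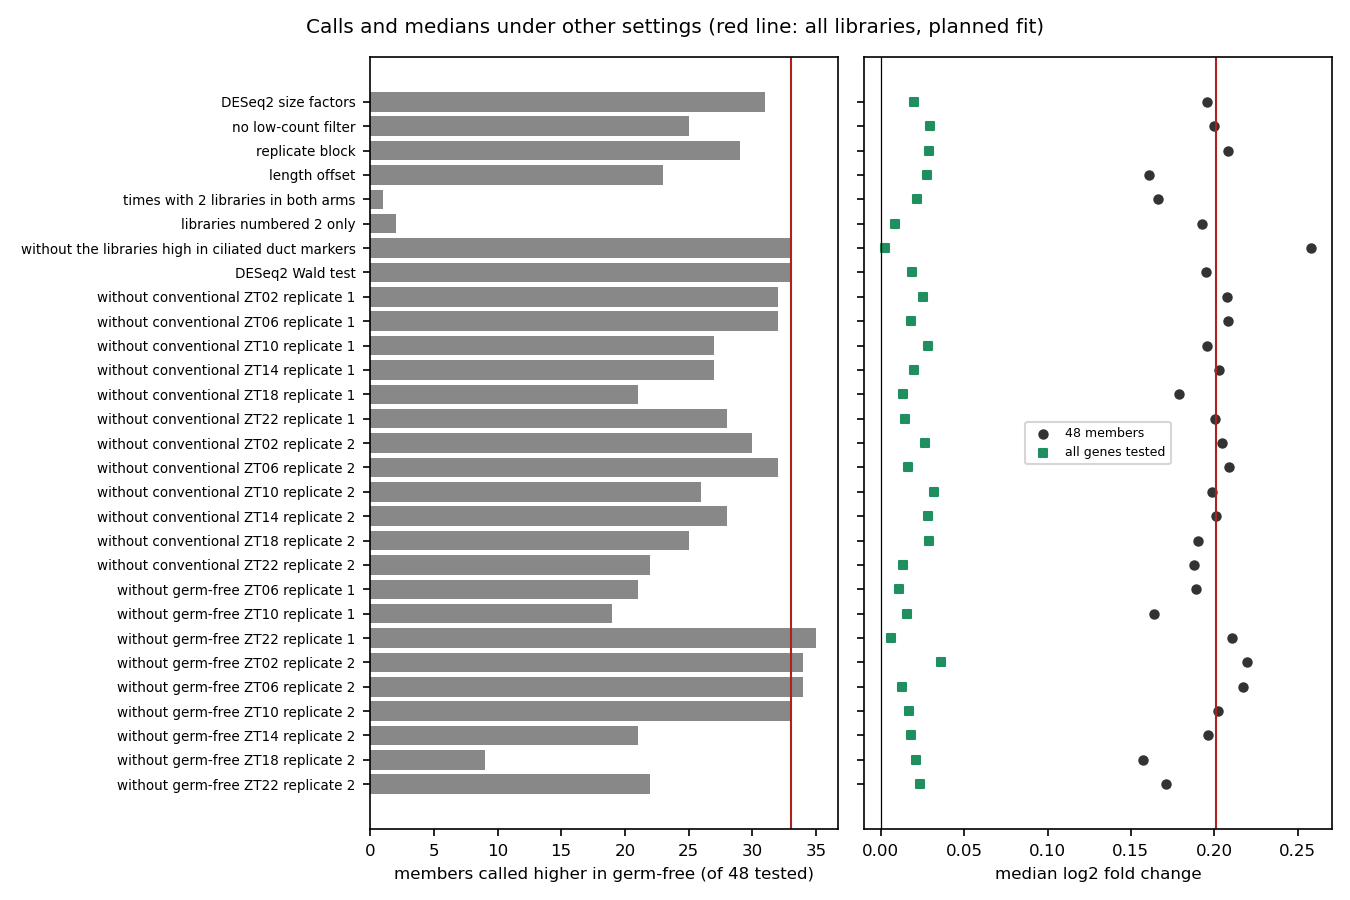
Left, how many of the 48 genes tested were called higher in germ-free fat under each setting (grey bars; the red line marks all libraries with the planned fit, 33); right, the median log2 fold change of the 48 genes (black circles) and of all genes tested (green squares). The bars run from 1 to 35 while the medians of the 48 genes lie between 0.16 and 0.26 and those of all genes between 0 and 0.04.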

How the data were processed

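Total RNA was sequenced from 21 libraries after ribosomal RNA depletion with a stranded kit, per the labels' protocols, and reads were aligned with STAR 2.4.0i to mm10, per the submitters' processing notes. The authors deposited raw read counts over exons per gene, with an exon length for each gene as the other value, per the file headers. How exons were counted (the program, strand, multi-mapping reads and annotation release) is not given in the sources used here. Genes were compared with edgeR 4.0.16 (R 4.3.3, limma 3.58.1): filterByExpr kept 18334 of 38087 genes, libraries were scaled by TMM, and quasi-likelihood F tests were adjusted over all genes tested by the Benjamini-Hochberg method at 0.05. The comparison of arms held time as a 6-level factor, and rhythms were joint tests of a 24 h cosine and sine within each arm. The standard error is the log2 fold change divided by the square root of F. CPM values used the TMM-scaled totals, and levels of different genes were compared per kb of exon. Log2 values by library used a prior count of 2. DESeq2 1.42.0, its size factors, no filter, a replicate block, a length offset (lowess span 0.3), subsets of times and numbers, and single libraries left out were the alternatives. The scripts were tested on simulated data. Figures used matplotlib 3.10.9 under Python 3.11.15.

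The members and lists were chosen with earlier results of these data known. Positions and exon overlaps are from GENCODE M21 (GRCm38). 14 of the members overlap exons of another gene (such as Psmb9 with Tap1, Psmb7 with Nek6 and Psmb8 with Gm20496), so their counts are uncertain. Named were the catalytic, regulator, chaperone and tissue-restricted genes and, in the 4 other groups, the 3 members with the smallest and the 1 with the largest p; from each pathway list up to 3 genes with the smallest p; for rhythms the 6, and for their difference the 3, with the smallest p. Some results that this rule would name are not reported here. Genes outside this rule were named after their values were seen. Of the partners and regulators listed, Paaf1 had no match in the table, nor did Ecm29 and Psme2b under those names. Psme2b-ps is in the table but is left out by the rule. Sem1 was found as Shfm1, Ecpas (another name of Ecm29) as AI314180 and Adgre1 as Emr1. Precision is limited by the depth of 24388294 to 48348181 counts and by 12 and 9 libraries.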

Additional observations from a re-analysis of the deposited data

Results flagged for a closer look

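Of 52 values checked for an outlying library among the 9 germ-free libraries (the levels of the 49 genes and the 3 ratios), 2 had a gap that was large for the range; chance alone gives about 1 in 20. Psmd3, a lid subunit, stood at 87.8 CPM in germ-free ZT22 replicate 2, and the next germ-free library was at 74.8 CPM. Psmc3ip, a meiotic gene taken in by its symbol, stood at 3.76 CPM in germ-free ZT22 replicate 1, and the next was at 2.22 CPM. Psmd3 rose by 0.21 ± 0.06 (edgeR adjusted p = 0.0113) and stayed called without germ-free ZT22 replicate 2, but not without germ-free ZT18 replicate 2 (adjusted p = 0.0629). Without germ-free ZT22 replicate 1 the estimate for Psmc3ip was -0.09.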

How the results depend on the processing

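No proteasome gene was called lower in any setting run. The count called higher was 33 with all libraries, 31 with DESeq2 size factors, 33 with DESeq2's Wald test, 25 without the low-count filter, 23 with the length offset, 33 when libraries with high ciliated duct markers were left out, 1 in the times with 2 libraries in both arms and 2 in the libraries numbered 2, both of which hold fewer libraries. In the same order, 15.3%, 14.2%, 15.8%, 6.41%, 15.2%, 13%, 2.96% and 2.45% of all genes tested were called higher. In the last pair of settings, 1 and 2 of 48 are near the share of all genes. The standard subunits gave 25, and in the last pair of settings 0 and 1. With 1 library left out, 8.59% to 15.5% of all genes tested were called higher. Leaving out 1 library at a time gave 9 to 35 genes, 6 to 28 standard subunits (15 without germ-free ZT22 replicate 2, 16 without conventional ZT22 replicate 2) and 0 to 1 gene rhythmic in germ-free fat. That 1 gene, Psmg4, fell to 0 without the filter, without those ciliated-high libraries and with time as a 6-level factor; the cause was not tested.

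With the replicate block, 29 genes and 23 standard subunits were called higher, beside 14.4% of all genes tested. What the replicate number marks is not in the labels. The number 1 minus number 2 differences of the arms correlated at 0.556, 0.219 and -0.183 at ZT06, ZT10 and ZT22. Summed liver markers were higher in number 1 than in number 2 at those times in both arms. At ZT06 they stood at 112 against 33.8 CPM in conventional and 81.5 against 43.1 CPM in germ-free libraries. Conventional ZT02 went the other way. The germ-free libraries at ZT02, ZT14 and ZT18 were all numbered 2.

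The genes that changed sign were all uncalled. Psme3 (-0.00) became 0.0019 with the replicate block, 0.045 in the libraries numbered 2 and 0.021 without the ciliated-high libraries. Psmd11 became 0.00076 without the ciliated-high libraries. Psmf1 became 0.037 with the length offset and 0.00037 in the libraries numbered 2. Psmd7 became -0.020 with the length offset and -0.0059 in the times with 2 libraries. Psmb9 became -0.10 in those times, and Psmc3ip -0.15 in the libraries numbered 2. With 1 library left out, Psmb9 ran from -0.017 to 0.11, Psmc3ip from -0.095 to 0.21 and Psme3 from -0.034 to 0.016.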
